A study of Homo sapiens with 4 samples.

Results

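The MAP kinase feedback genes described here are DUSP1, DUSP4, DUSP5, DUSP6, DUSP14, SPRY2, SPRY4, SPRED1, PHLDA1 and ETV5, chosen by symbol. Of these 10 genes, 9 had a row among the 16692 genes of the count table, and ETV5 was not analysed here. Ribosome footprints, the mRNA fragments that translating ribosomes shield from RNase, and RNA were counted in SNU-668, an established human gastric cancer line whose cells were called erastin-resistant. Erastin blocks the import of cystine into cells. In the names of the libraries the letters RLS3 stand where erastin would, and the labels do not settle which compound the cells resist. Cells of both groups came from this resistant line. One group carried an shRNA against ALKBH3, a demethylase of alkylated DNA and RNA, and the other a control shRNA, which the genotype label calls WT. Each group had 1 footprint library and 1 RNA library, with no replicates, so the intervals below are 95% intervals from counting error, and a difference sets 1 library against 1 other.

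Signals from growth factor receptors pass through RAS and the RAF and MEK kinases to the ERK kinases, and stress signals pass through related chains to p38 and JNK. Active ERK induces its own brakes. Dual-specificity phosphatases remove the activating phosphates from the MAP kinases, while Sprouty and SPRED proteins act upstream, around RAS and RAF. Some of these genes follow ERK activity closely, and their expression is widely used as a readout of the pathway in cancer cells. Footprint counts measure ribosome occupancy of the mRNAs, not kinase activity.

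The promoters of DUSP1, DUSP6 and PHLDA1 are shown because these were the members whose footprint interval left out equality between the libraries, DUSP6 on the higher side and the others on the lower side. Each line gives the 250 bases before the start site, 5′ to 3′ on the gene's own minus strand, from RefSeq (GRCh38.p14). Capitals mark matches to 8 motifs that were searched on both strands.
DUSP1 chr5:172771196-172771445: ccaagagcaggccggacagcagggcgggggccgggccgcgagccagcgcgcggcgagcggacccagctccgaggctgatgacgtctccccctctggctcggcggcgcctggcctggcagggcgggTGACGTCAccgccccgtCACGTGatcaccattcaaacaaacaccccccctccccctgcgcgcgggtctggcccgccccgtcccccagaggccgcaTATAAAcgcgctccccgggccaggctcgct
DUSP6 chr12:89352502-89352751: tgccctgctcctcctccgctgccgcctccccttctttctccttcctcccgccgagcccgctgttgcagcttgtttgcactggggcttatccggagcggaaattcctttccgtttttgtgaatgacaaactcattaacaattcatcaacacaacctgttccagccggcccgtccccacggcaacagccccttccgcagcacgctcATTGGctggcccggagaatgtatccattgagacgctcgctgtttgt
PHLDA1 chr12:76031777-76032026: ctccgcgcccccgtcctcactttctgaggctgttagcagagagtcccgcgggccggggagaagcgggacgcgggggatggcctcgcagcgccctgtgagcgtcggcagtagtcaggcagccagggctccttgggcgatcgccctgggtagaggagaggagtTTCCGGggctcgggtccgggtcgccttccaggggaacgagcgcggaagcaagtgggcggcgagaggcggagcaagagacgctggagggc
The DUSP1 window held a cAMP response element (TGACGTCA) 125 to 118 bases before the start, an E-box (CACGTG) at 108 to 103 and a TATA box (TATAAA) at 30 to 25. The DUSP6 window held a CCAAT box (CCAAT) at 46 to 42, read on the other strand. PHLDA1 held an ETS core (CCGGAA) at 89 to 84, also on the other strand. The same windows of 35114 RefSeq start sites held the cAMP response element in 1.65%, the E-box in 6.35%, the ETS core in 14.5%, the TATA box in 10.7% and the CCAAT box in 32.0%. No match to AP-1 (TGANTCA, 6.57% of all windows), the ATF4-CEBP element (TGATGNAA, 3.14%) or the CArG box (1.16%) was in any of the 3 windows. None of the motifs overlapped another in these windows. Of the 9 members, 7 had their windows searched, and DUSP4 and DUSP5 were not among them. Outside the 3 shown, the one match was an ETS core 142 to 137 bases before 1 of the 3 listed start sites of SPRY2.

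The footprint libraries held 3795680 counts (control) and 3742513 counts (knockdown-labelled), and the RNA libraries 554075 and 689375. ALKBH3 had 14 footprints in the control and 22 in the library labelled ALKBH3 knockdown (log2 ratio 0.59, interval -0.37 to 1.54) and 0 RNA counts in both, so the knockdown label was not borne out by the counts. Every direction below is therefore stated for libraries by their labels. Of the epithelial markers of a gastric line, KRT18 had 462 and 538 footprints, while KRT8 had 17 and 15 (beside 208 and 511 RNA counts), KRT19 had 4 and 3 and EPCAM had 0 and 2. Of markers of other cells, the leukocyte gene PTPRC had 0 footprints in both, the endothelial gene VWF 13 and 15, the macrophage gene CD68 762 and 745, and the fibroblast-type collagens COL1A2 24916 and 21822 and COL1A1 1001 and 663 (log2 ratio -0.64, -0.78 to -0.50). Their part in the results was not tested.

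As a group, the feedback genes carried about as many footprints in the knockdown-labelled library as in the control. The 9 genes summed to 2432 control footprints, 0.0641% of the library (exact binomial interval 0.0616 to 0.0667%), and to 2307 knockdown-labelled footprints, 0.0616% (0.0592 to 0.0642%). PHLDA1 alone gave 53.8% of the control sum and 49.6% of the knockdown-labelled sum. After TMM scaling the summed log2 ratio was -0.12 (-0.20 to -0.04), and its interval held 0 with plain totals (-0.06) and on summed RPKM (-0.02). For summed RPKM the interval of the summed counts was moved to the RPKM value, so it is approximate. Without PHLDA1, a choice made after the values were seen, the other 8 genes went from 1123 to 1162 footprints, a log2 ratio of 0.00 (-0.12 to 0.12). The 5 phosphatases summed to 1011 and 1033 footprints (-0.02, -0.14 to 0.11). SPRY2, SPRY4 and SPRED1 summed to 112 and 129 (0.16, -0.21 to 0.52).

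A minimum of 100 footprints over both libraries was met by 6 members (DUSP1, DUSP4, DUSP6, DUSP14, SPRED1 and PHLDA1) and by 7050 genes in all. None of the 6 was at least 2-fold apart, where 0.879% of all 7050 genes were higher by 2-fold or more and 0.426% were lower. Over all genes these were 62 higher and 30 lower, a split that moved to 81 and 21 with plain totals and to 92 and 19 on the deposited RPKM. None of the members reached 1.5-fold either, against 4.89% of all genes higher and 4.62% lower. The interval lay above 0 for 1 member, DUSP6, beside 18.2% of all genes. It lay below 0 for 2 members, DUSP1 and PHLDA1, beside 22.3% of all genes. The median log2 ratio of the 6 was -0.03, and that of all 7050 genes was -0.02. Over all 9 genes with a row, the 3 low ones included, the median was 0.01. Across all genes the standard deviation of the log2 ratios was 0.36, while the counting error of a ratio had a median of 0.15. Counting intervals are therefore narrower than the spread seen across genes.

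**Figure D1:**
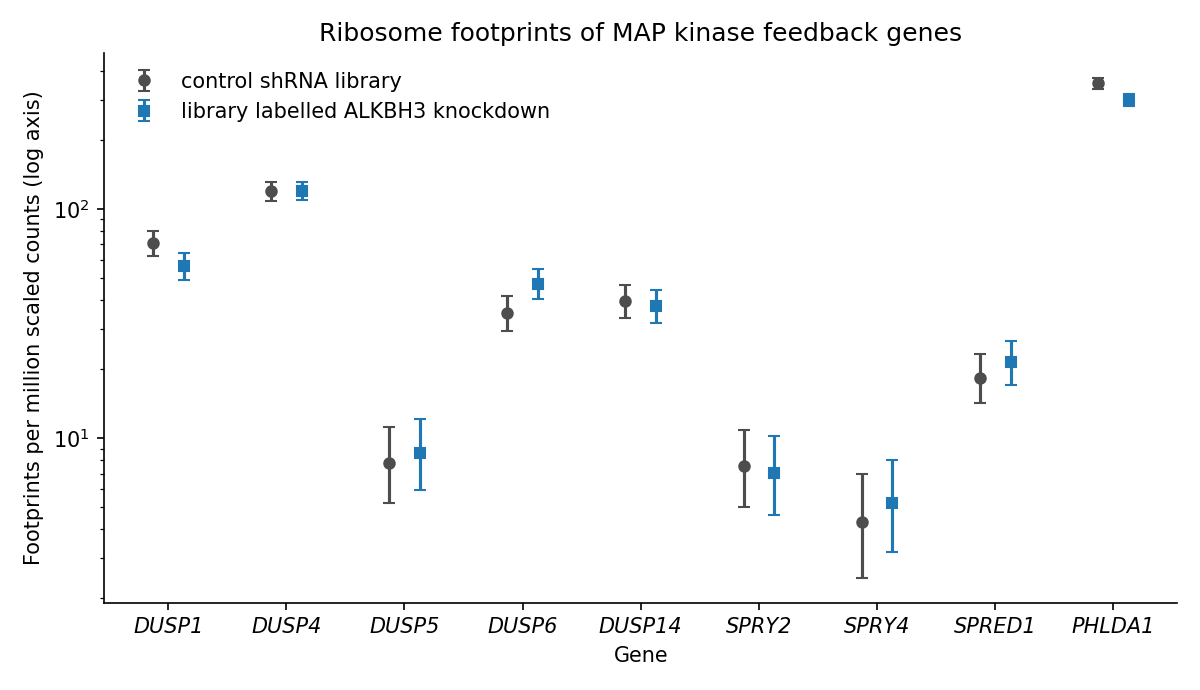
Footprints as CPM after TMM scaling (log axis) for the 9 feedback genes with a row, in the control (grey circles) and knockdown-labelled (blue squares) libraries, 1 library each, with exact 95% Poisson intervals. PHLDA1 is highest at 353 and 299, SPRY4 is lowest at 4.31 and 5.22, and each pair of symbols lies close together.

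DUSP1, DUSP4 and DUSP5 are inducible phosphatases of the nucleus. DUSP1 (ENSG00000120129, chromosome 5, 172195093 to 172198198, minus strand, hg19), an immediate early gene that acts mostly on p38 and JNK and is also induced by stress, had 263 control and 216 knockdown-labelled footprints. These are 70.9 (62.6 to 80.0) and 56.4 (49.1 to 64.4) counts per 1000000 (CPM), lower in the knockdown-labelled library, with Poisson intervals that overlap slightly. Its log2 ratio was -0.33 (-0.59 to -0.07), a 0.795-fold level, and 1142 of the 7050 genes were lower. On the deposited RPKM, which moved the median of all genes from -0.02 to 0.10, the interval held 0 (-0.21, -0.47 to 0.05).

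DUSP4 (ENSG00000120875, chromosome 8, 29190581 to 29208185, minus strand), which acts on ERK and JNK, had 442 and 459 footprints, or 119 (108 to 131) and 120 (109 to 131) CPM. The libraries were level, at a log2 ratio of 0.01 (-0.18 to 0.20), an interval that leaves out a difference of more than 1.15-fold upward. DUSP5 (ENSG00000138166, chromosome 10, 112257596 to 112271302, plus strand), which is specific to ERK, had 29 and 33 footprints. Its log2 ratio of 0.14 (-0.58 to 0.85) leaves a difference of up to 1.80-fold undetectable at this depth.

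DUSP6 (ENSG00000139318, chromosome 12, 89741009 to 89747048, minus strand), the ERK-specific phosphatase of the cytoplasm, had 130 and 181 footprints. These are 35.1 (29.3 to 41.6) and 47.3 (40.6 to 54.7) CPM, higher in the knockdown-labelled library, with Poisson intervals that overlap slightly. The log2 ratio was 0.43 (0.10 to 0.75), a 1.35-fold level, and 704 of the 7050 genes were higher. DUSP6 was thus the member furthest above 0, yet inside the middle 95% of all genes, which ran from -0.71 to 0.74. DUSP14 (ENSG00000161326, chromosome 17, 35869981 to 35873603, plus strand), an atypical member that lacks the kinase-binding domain of the classical phosphatases, had 147 and 144 footprints (-0.08, -0.41 to 0.25).

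**Figure D2:**
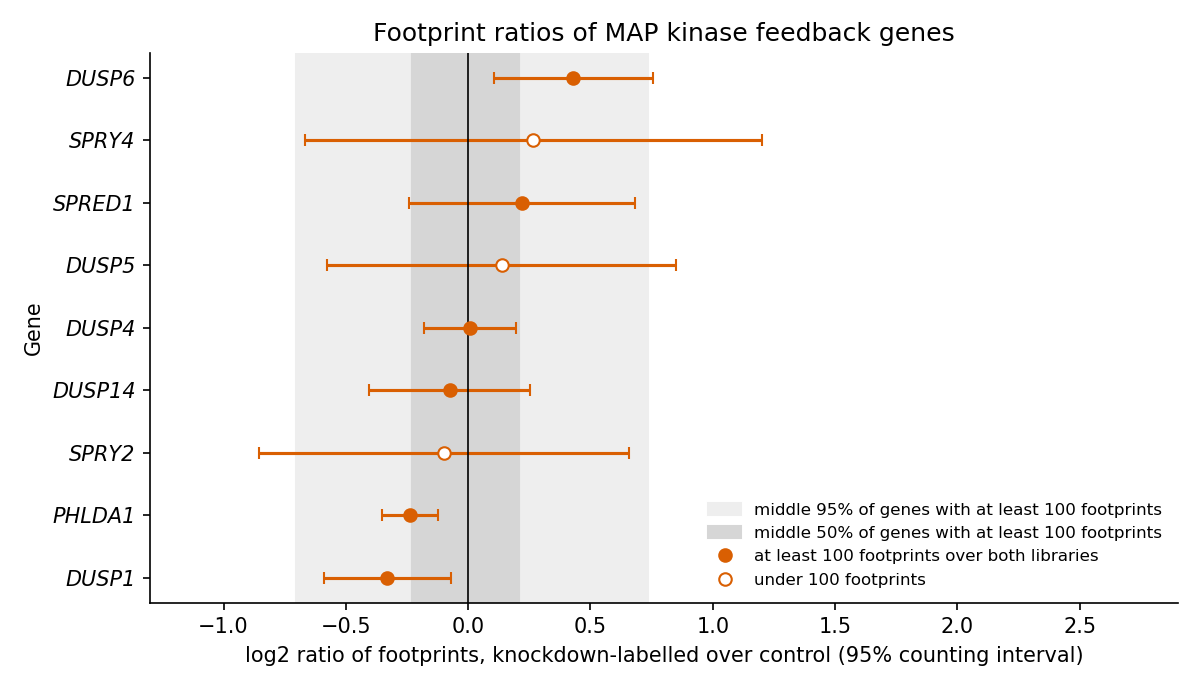
log2 ratio of footprints, knockdown-labelled over control, for each feedback gene with its 95% counting interval. Open circles are genes under 100 footprints over both libraries, and the grey bands hold the middle 50% (-0.23 to 0.21) and 95% (-0.71 to 0.74) of 7050 genes. DUSP6 lies above 0 at 0.43, DUSP1 and PHLDA1 lie below at -0.33 and -0.24, and the other 6 intervals hold 0.

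The Sprouty and SPRED genes were sparsely counted. SPRED1 (ENSG00000166068, chromosome 15, 38544527 to 38649450, plus strand), which brings the RAS inactivator neurofibromin to the membrane, had 68 and 82 footprints (0.22, -0.24 to 0.68). SPRY2 (ENSG00000136158, chromosome 13, 80910111 to 80913794, minus strand), an inhibitor of receptor signalling to RAS, had 28 and 27 (-0.10, -0.85 to 0.66). SPRY4 (ENSG00000187678, chromosome 5, 141689992 to 141704566, minus strand), of the same family, had 16 and 20 (0.27, -0.67 to 1.20). None of these 3 intervals left out 0, and differences of the size seen in DUSP6 were not detectable at these depths.

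PHLDA1 (ENSG00000139289, chromosome 12, 76419227 to 76427712, minus strand), a pleckstrin-homology-like protein often used as an ERK output gene, had 1309 and 1145 footprints. These are 353 (334 to 373) and 299 (282 to 317) CPM, with Poisson intervals that do not overlap. The log2 ratio was -0.24 (-0.35 to -0.13), a 0.847-fold level. Against all genes this was a common size of difference, since 1695 of the 7050 were lower. The interval stayed below 0 under each scaling tried, at -0.12 (-0.24 to -0.01) on the deposited RPKM.

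**Figure D3:**
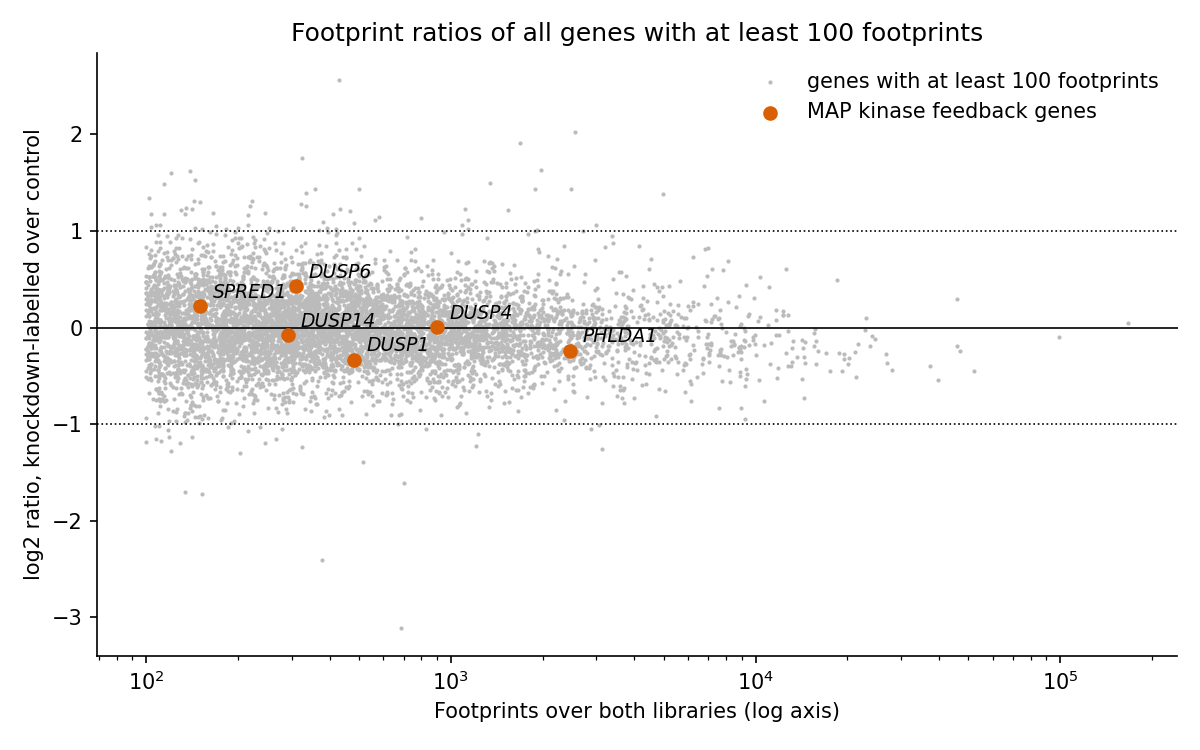
log2 ratio of footprints against footprints over both libraries (log axis) for the 7050 genes with at least 100 footprints (grey), with the 6 feedback genes that met this minimum in orange and dotted lines at a 2-fold difference. The feedback genes lie within the cloud, between -0.33 (DUSP1) and 0.43 (DUSP6).

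By counting error alone, the members did not all keep the same ratio. A difference between the log2 ratios of 2 genes does not depend on how the libraries are scaled. Of the 36 pairs of the 9 genes, 7 differed with an interval above 0, and DUSP6 was in 4 of them. DUSP6 lay above DUSP1 by 0.76 (0.34 to 1.17) on the log2 scale and above PHLDA1 by 0.67 (0.32 to 1.01). It lay above DUSP4 by 0.42 (0.05 to 0.80) and above DUSP14 by 0.51 (0.04 to 0.97). DUSP4 lay above DUSP1 by 0.34 (0.02 to 0.66) and above PHLDA1 by 0.25 (0.03 to 0.47), and SPRED1 above DUSP1 by 0.55 (0.02 to 1.08). DUSP1 and PHLDA1, the lower genes, differed by 0.09 (-0.19 to 0.37). These intervals cover counting error only and are not adjusted for the number of pairs. The share of such pairs over all genes was not computed, so the count is not read as particular to the members. The ratios of the 6 members past the minimum had a standard deviation of 0.28, against 0.36 over all 7050 genes.

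Levels between genes were compared on the deposited RPKM, which divides by gene length. In the control library PHLDA1 was highest at 217 RPKM, followed by DUSP4 at 49.0, DUSP14 at 39.0, DUSP1 at 35.9 and DUSP6 at 16.7. SPRED1 at 7.997, SPRY2 at 4.49, DUSP5 at 3.78 and SPRY4 at 2.72 came last, 79.9-fold below PHLDA1 at the end of the order. The median gene with at least 100 footprints stood at 24.2 RPKM, so DUSP6, SPRED1, SPRY2, DUSP5 and SPRY4 lay below it. Neighbours in the order were apart by more than counting error in 5 of 8 places, and not between DUSP14 and DUSP1 (1.09-fold, 0.89 to 1.33), SPRY2 and DUSP5, or DUSP5 and SPRY4. The knockdown-labelled library had the same order. There PHLDA1 stood at 200 RPKM, DUSP4 at 53.5, DUSP14 at 40.2, DUSP1 at 31.0, DUSP6 at 24.4, SPRED1 at 10.1, SPRY2 at 4.56, DUSP5 at 4.52 and SPRY4 at 3.57. DUSP1 stood above DUSP6 by 2.15-fold (1.74 to 2.66) in the control, and by 1.27-fold (1.04 to 1.55) in the other library.

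RNA counts gave little on these genes. PHLDA1 had 58 and 35 RNA counts, or 109 CPM (82.9 to 141) and 48.7 CPM (33.9 to 67.7), lower in the knockdown-labelled library. The other 8 members together had 7 and 6 counts, at most 3 in a library, and 0 counts were found for 3 of the 9 genes in the control and for 4 in the other library. At a count of 0 the floor of 3 counts is 5.65 CPM (control) or 4.17 CPM (knockdown-labelled), and the exact Poisson interval reaches 6.95 and 5.13 CPM. Summed over the 9 genes, RNA went from 65 to 41 counts (log2 ratio -1.10, -1.66 to -0.54). PHLDA1 gave 93 of these counts over both libraries, so the sum follows this 1 gene. RNA ratios over all genes were not computed, so the sum is not read as a result about the group. Low RNA counts were general: 94.6% of the 7044 protein-coding genes past the footprint minimum had fewer than 100 RNA counts.

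PHLDA1 was the only member whose span overlaps another listed gene. RP11-290L1.3 (ENSG00000257453, antisense biotype, chromosome 12, 76424274 to 76425158, plus strand) lies inside it and had 613 and 696 RNA counts, at a log2 ratio of -0.25 (-0.41 to -0.10), and 0 footprints. RP11-290L1.2 (ENSG00000257839), also on the plus strand, had 5 and 2 RNA counts and 0 footprints. The sources used here do not say whether the RNA libraries keep strand, so reads of PHLDA1 and of these opposite-strand rows cannot be told apart with certainty. No ratio of footprints to RNA was computed for any member.

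The rest of the pathway was read from 5 further gene lists. Among other MAP kinase phosphatases, 10 of 14 genes had a row and 3 met the minimum of 100 footprints, with a median log2 ratio of -0.06. DUSP7, a cytoplasmic ERK phosphatase, was at -0.25 (-0.57 to 0.08), DUSP10, which acts on p38 and JNK, at -0.00 (-0.23 to 0.22), and the catalytically inactive STYXL1 at -0.06 (-0.29 to 0.17). All 3 intervals held 0.

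Among other Sprouty, SPRED and feedback inhibitors, 9 of 16 genes met the minimum, with a median of -0.02. RASA1, which switches RAS off, was higher in the knockdown-labelled library, from 86 to 157 footprints (0.82, 0.44 to 1.20). PHLDA2, a relative of PHLDA1, was lower, from 423 to 317 (-0.46, -0.67 to -0.25). The other 7 intervals held 0, where 18.2% of all 7050 genes lay above 0 and 22.3% below.

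Among other ERK output genes, 10 of 20 met the minimum, with a median of -0.04, 1 interval above 0 and 2 below. EPHA2, a receptor kinase, went from 1353 to 1616 footprints (0.21, 0.11 to 0.31). CCND1, cyclin D1, went from 3670 to 3271 (-0.21, -0.28 to -0.14), and PLAUR, the urokinase receptor, from 996 to 759 (-0.44, -0.57 to -0.30). The output genes lay on both sides of 0 with none at least 2-fold apart. Over all 7050 genes only 0.879% were at least 2-fold higher and 0.426% lower, so this is not read as a trait of the list. Intervals lay above 0 for 18.2% of all 7050 genes and below 0 for 22.3%.

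Of 15 measured genes of the signal path from RAS to ERK, 5 intervals lay above 0, 3 below and 7 held 0, with a median of 0.06. Of all 7050 genes, 18.2% lay above and 22.3% below. The exchange factors that load RAS were higher, SOS2 from 82 to 167 footprints (0.98, 0.59 to 1.36) and SOS1 from 110 to 189 (0.73, 0.39 to 1.07). SOS2 stood just under 2-fold, and past it with plain totals at 1.04 and on the deposited RPKM at 1.07. SHOC2, a scaffold for RAF activation, went from 72 to 134 (0.84, 0.43 to 1.26). The kinase MAP2K1 (MEK1) was lower, from 947 to 634 (-0.63, -0.77 to -0.48).

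The ERK kinase MAPK3 (ERK1) was higher, from 60 to 93 footprints (0.58, 0.11 to 1.05). MAP2K2 (MEK2) was at 0.06 (-0.19 to 0.31), with an interval that holds 0. GRB2, the adaptor that carries SOS, at -0.31 (-0.53 to -0.09), and HRAS, at -0.29 (-0.53 to -0.04), were the other genes below 0, named after their values were seen. BRAF had 7 and 22 footprints, under the minimum. Genes of the p38 and JNK paths had a median of 0.04 over 8 measured genes, with MAP3K1 above 0 (0.44, 0.11 to 0.78) and MAP2K7 below (-0.39, -0.70 to -0.08). On the deposited RPKM the intervals of GRB2 (-0.19), HRAS (-0.17) and MAP2K7 (-0.27) held 0, and that of HRAS did so with plain totals as well (-0.22). The median of all genes was 0.10 on the RPKM and 0.05 with plain totals.

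**Figure D4:**
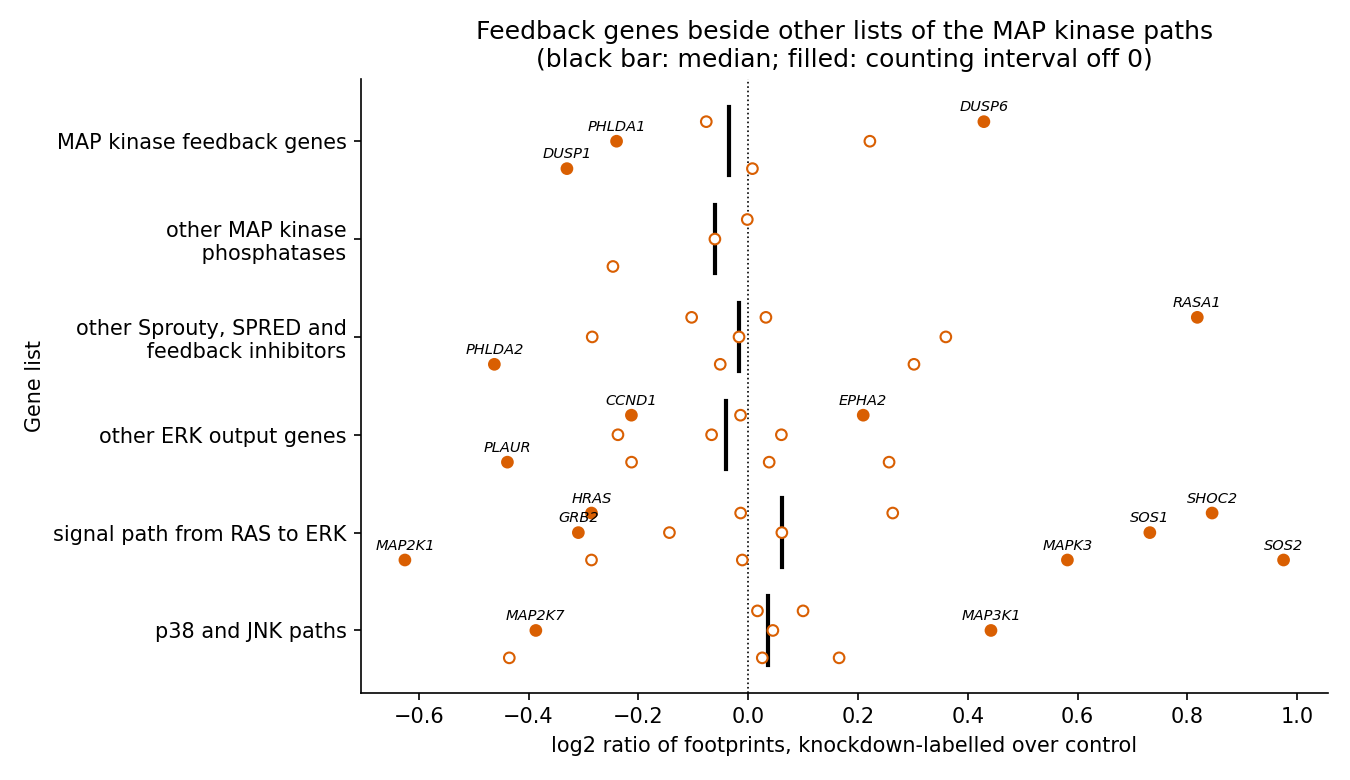
log2 ratio of footprints, knockdown-labelled over control, for each gene with at least 100 footprints in the feedback genes and 5 other lists, with the list's median as a black bar and filled circles where the counting interval leaves out 0. Genes not reported here are not drawn but count in the medians. All medians lie between -0.06 and 0.06, and the signal path from RAS to ERK runs from -0.63 (MAP2K1) to 0.98 (SOS2).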

How the data were processed

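Ribosome footprints and RNA were measured in 4 libraries, 1 in each of 4 groups, with the assay taken from the titles and the genotype from the labels. Per the submitters' processing notes, the tools were FastQC, cutadapt, STAR and Bowtie (no version or role stated) and the genome was hg19. The authors deposited raw read counts per gene and RPKM per gene. The counter, gene length and strand setting behind them are not given in the sources used here.

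Counts were scaled by TMM within each assay (edgeR 4.0.16, R 4.3.3). Log2 ratios (knockdown-labelled over control) used a prior count of 0.5, and 95% intervals came from the counting error of the 2 counts. PCR copies were not marked by molecular identifiers, so intervals and the floor of 3 counts cover counting error only. With 1 library a group there is no test, and no p-value is given. Ratios were computed over the whole table for genes with at least 100 footprints over both libraries, and the 3 members below it are given with their intervals. The calculation was run on simulated Poisson counts with known totals, without TMM scaling or variation between replicate libraries. This checks the arithmetic of the intervals, not the spread between libraries.

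The members and gene lists were chosen with earlier results of these data known. Genes named were all members, ALKBH3, up to 4 genes a list with intervals furthest from 0, and 7 genes of the RAS to ERK path, some of which are not reported here but stay in the list's counts. Promoters were matched by symbol, with 250 bases before each start searched for 8 motifs on both strands; the motifs were chosen after the counts were seen. No genes of like pattern were sought, since 2 libraries give a single ratio. Alternatives were plain totals, DESeq2 1.42.0 size factors, the deposited RPKM with 0.1 added, a prior of 5, minimums of 20 and 1 reads, protein-coding genes alone, no mitochondrially encoded genes, exact intervals and a 1.5-fold minimum. Genes of the lists with no row were not analysed here.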

Additional observations from a re-analysis of the deposited data

How the results depend on the processing

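Among the 9 members, 53 of 54 values kept their direction or an interval holding 0 under the alternatives for single genes, and 1, DUSP1 on the deposited RPKM, came to hold 0. That RPKM moved the median of all genes from -0.02 to 0.10. Part of the shift came with leaving out the TMM factors, since plain totals put this median at 0.05. The RPKM footprint values also differ from the counts by 1 constant between libraries, 1.05, against 1.01 for the totals. On that scale DUSP6 was at 0.55 and PHLDA1 at -0.12. SPRY2 at 0.02 and DUSP14 at 0.04, with intervals holding 0, had a positive sign there but lay below the median of all genes, as they did with TMM. With RPKM, members with an interval below 0 numbered 1 in place of 2. The summed footprints came to hold 0 with plain totals (-0.0558, -0.138 to 0.0264) and with summed RPKM (-0.0198, -0.102 to 0.0624), and passed to the other side without PHLDA1 (0.00255), a choice made after seeing the data. The interval given for summed RPKM is that of the summed counts moved to the RPKM value. The median of the 6 members ran from -0.03 to 0.08, and no member was 2-fold apart under any setting run. The summed RNA ratio, which follows PHLDA1, ran from -1.21 to -0.97 over the scalings.

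Over all genes, 201 were at least 2-fold higher and 111 lower at 20 reads, and 222 and 144 at 1 read, where more genes entered. With the lower threshold of 1.5-fold, over the same 7050 genes, they were 345 and 326. RPKM gave 19 lower. The median of other MAP kinase phosphatases was 0.29 at 1 read, where genes with few counts enter. For the genes of the other lists, 353 of 360 values were kept, 4 came to hold 0 and 3 came to leave it out. No paired analysis was possible because each group has 1 library, and leaving out a replicate could not be run. Depth limits the Sprouty genes and DUSP5 most.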

Other observations

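Of 37 genes of the 5 other lists under the minimum of 100 footprints, 4 had an interval that left out 0. The share over all genes under the minimum was not computed, so the count is not read as a trait of the lists. Past the minimum, the interval lay above 0 for 18.2% of all 7050 genes and below 0 for 22.3%. DUSP23, a small atypical phosphatase, went from 41 to 14 footprints (log2 ratio -1.56, -2.43 to -0.70). MAP3K5, the stress kinase ASK1, went from 16 to 47 (1.48, 0.67 to 2.29), BRAF from 7 to 22 (1.54, 0.35 to 2.73) and MAPK11, a p38 kinase, from 15 to 30 (0.93, 0.05 to 1.81). They were picked out after their values were seen, and rest on few counts in single libraries.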
